A study of Mus musculus with 2 samples.

Results

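The fibroblast growth factors FGF7 and FGF10 and their receptors FGFR1 and FGFR2 were followed across the sorted stromal cells of the mouse colon and small intestine. The 4 genes Fgf7, Fgf10, Fgfr1 and Fgfr2 were taken by name from the 16098 genes listed for both tissues, and all 4 were found in both count tables. Cells came from healthy, untreated mice, with 1 library per tissue. After removal of the epithelium, digestion took 60 minutes for the colon and 45 minutes for the small intestine, and live cells without CD45 and EpCAM were sorted, per the labels' protocols. About 16000 cells per library were loaded on the 10x Genomics 3' version 3.1 kit. The number, strain, sex and age of the mice are not given in the sources used here. With 1 library per tissue no replicate check was possible, so no p-value is given, and tissue, animal, digestion time and library cannot be told apart.

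FGF7 (keratinocyte growth factor) and FGF10 are closely related secreted proteins that bind heparan sulfate and act from mesenchyme on neighbouring epithelium. Their receptor there is the IIIb splice form of FGFR2. Mesenchymal cells mostly carry the IIIc forms of FGFR1 and FGFR2, which respond to other members of the family. FGF10 and FGFR2b are known for their part in gut development, and FGF7 for epithelial growth and repair. Counts from the 3' end of transcripts do not tell the splice forms apart, and the epithelium was sorted away, so the levels of Fgfr2 below are those of stromal cells and of all splice forms together.

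The genes lie apart in the genome. In GENCODE vM21 on GRCm38, Fgf7 (ENSMUSG00000027208.14) is on chromosome 2 from 126034658 to 126091185 on the plus strand. Fgf10 (ENSMUSG00000021732.14) spans 118669791 to 118792115 on chromosome 13, plus strand. Fgfr1 (ENSMUSG00000031565.18) spans 25513654 to 25575718 on chromosome 8, plus strand. Fgfr2 (ENSMUSG00000030849.18) is on the minus strand of chromosome 7, where RefSeq ends the gene at 130266808 and GENCODE runs it from 130162451 to 133123350 over neighbouring genes. Genes on the opposite strand overlap 3 of the 4 (Fam227b at Fgf7, with 105 UMIs in the colon and 94 in the small intestine; the antisense Gm16263 at Fgf10, with 574 and 522; the antisense Gm16159 at Fgfr1, with 35 in the small intestine and not listed for the colon). Whether counting used strand is not given in the sources used here.

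The start regions of the ligands are shown because both were higher in the same colon cell type relative to the small intestine. They are RefSeq sequences of GRCm38.p6, read 5′ to 3′ in the direction of transcription, from 250 bases before the annotated start to 50 bases after it. Capitals mark every match on either strand to the TATA box (letters TATAAA), the CCAAT box (letters CCAAT), the GC box (letters GGGCGG) or a forkhead core (letters TGTTTAC), motifs that do not overlap each other and were picked after the sequences had been seen. RefSeq starts Fgf10 at 118714699, downstream of the GENCODE start.

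Fgf7, chr2:126034408-126034707, plus strand: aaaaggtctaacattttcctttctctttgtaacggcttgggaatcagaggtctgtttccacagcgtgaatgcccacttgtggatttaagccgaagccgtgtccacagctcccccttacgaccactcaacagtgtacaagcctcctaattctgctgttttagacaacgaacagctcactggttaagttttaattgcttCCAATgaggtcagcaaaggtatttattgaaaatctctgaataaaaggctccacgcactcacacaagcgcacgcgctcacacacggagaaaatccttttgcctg

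Fgf10, chr13:118714449-118714748, plus strand: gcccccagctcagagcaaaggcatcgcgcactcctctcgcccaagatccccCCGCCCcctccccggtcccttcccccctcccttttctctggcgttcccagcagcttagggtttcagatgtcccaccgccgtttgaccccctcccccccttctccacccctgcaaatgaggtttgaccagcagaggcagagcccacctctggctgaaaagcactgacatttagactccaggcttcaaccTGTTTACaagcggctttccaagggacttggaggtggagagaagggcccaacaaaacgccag

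The Fgf7 region held CCAAT at -53 and none of the other 3 motifs, and 45.7% of its bases were G or C. In the Fgf10 region CCGCCC, the reverse complement of GGGCGG, began at -199 and TGTTTAC at -11, and 60.7% of its bases were G or C. Of 32851 mouse promoters of the same length, 37.4% held CCAAT, 35.7% GGGCGG, 3.65% TGTTTAC and 13.6% TATAAA on either strand, and the median share of G and C was 52.7%. The ligands shared no match to these motifs in this window.

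The colon library held 6018 cells with a median of 6598 UMIs (a UMI marks 1 captured RNA molecule) and the small intestinal library 9359 cells with a median of 5943. The authors' labels were used: CD81- fibroblasts (CD81- FBs), CD81+ trophocytes, PDGFRa-high SEMFs (fibroblasts with the most Pdgfra), lymphatic endothelial cells (LECs), blood endothelial cells (BECs) and smooth muscle cells (SMCs), with 53 (colon BECs) to 3631 (colon CD81- FBs) cells each. Levels are CPM, the UMIs of a gene per 1000000 UMIs of the type, with an exact Poisson 95% interval in brackets. All intervals cover counting error only. The summed level of the epithelial marker list was at most 11.6 CPM in any type, and that of leukocyte markers reached 404 CPM in colon BECs. Of the 6018 colon barcodes, 21 also occurred in the small intestinal library. The SMC label of the small intestine carried the 6 smooth muscle markers at a summed 3318 CPM but also Adamdec1, a metalloprotease gene of CD81- FBs. Its level was 9211 CPM under that label, 8191 CPM in small intestinal CD81- FBs and 1242 CPM in colon SMCs.

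Fgf10 was a CD81- FB transcript in both tissues. In the colon its level was 146 CPM (141 to 151) in CD81- FBs, 63.1 CPM (57.5 to 69.0) in SEMFs and 31.1 CPM in SMCs. Trophocytes had 11.8 CPM (9.26 to 14.8), LECs 13.1 CPM from 14 UMIs and BECs 18.5 CPM from 5 UMIs. CD81- FBs thus stood first and SEMFs second, each above the next type beyond counting error. Below them no step from SMCs to BECs, LECs and trophocytes exceeded counting error, although the intervals of SMCs (19.9 to 46.2 CPM) and trophocytes lay apart.

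In the small intestine Fgf10 had 110 CPM (105 to 115) in CD81- FBs and 53.1 CPM (44.9 to 62.3) under the SMC label. SEMFs had 4.60 CPM, which came from 30 UMIs in 13 of 1109 cells. Trophocytes, LECs and BECs were at 1.06, 0.892 and 1.37 CPM. CD81- FBs were again first and the SMC label second, and the last 3 types did not differ from each other. For scale, 9.88% of 15117 colon genes and 8.7% of 16029 small intestinal genes were highest in CD81- FBs. An Fgf10 UMI was seen in 50.5% of colon and 38.2% of small intestinal CD81- FBs, which fell to 17.7% and 12.9% when every cell was thinned to 1500 UMIs.

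Fgf7 was spread more widely. In the colon it was highest in SMCs at 95.8 CPM (75.2 to 120), followed by SEMFs at 65.2 CPM (59.5 to 71.3), CD81- FBs at 49.7 CPM (46.9 to 52.5) and trophocytes at 43.2 CPM (38.2 to 48.6). Over all colon cells each of these differed from the next beyond counting error, although 1 SMC gave 13 of the 74 SMC UMIs. The order did not hold in the Y-linked and Xist sets of colon cells described below. In the Y-linked cells SEMFs (90.02 CPM, 78.2 to 103) stood above SMCs (76.1 CPM, 48.3 to 114), with overlapping intervals. In the Xist cells SMCs stayed first at 101 CPM (64.2 to 152). There SEMFs (46.6 CPM) were not above CD81- FBs (47.5 CPM). LECs and BECs held 7 and 2 UMIs, or 6.57 and 7.42 CPM. In a split chosen after the values had been seen, colon SMCs without an Adamdec1 UMI (38 cells) had 78.2 CPM of Fgf7, and those with one (87 cells) 102.7 CPM. Of all colon genes, 17.3% were highest in SMCs.

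In the small intestine trophocytes (53.7 CPM, 50.1 to 57.5) and the SMC label (47.4 CPM, 39.7 to 56.2) had the most Fgf7, and they did not differ beyond counting error. CD81- FBs followed at 25.1 CPM (22.9 to 27.3), of which 1 cell gave 36 UMIs. SEMFs, with 5 UMIs in 1109 cells (0.767 CPM), were at the level of LECs (1.34 CPM) and BECs (1.37 CPM). The SMC label was first instead of trophocytes when cells were thinned to 1500 UMIs. Trophocytes were the highest type for 8.92% of small intestinal genes.

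**Figure D1:**
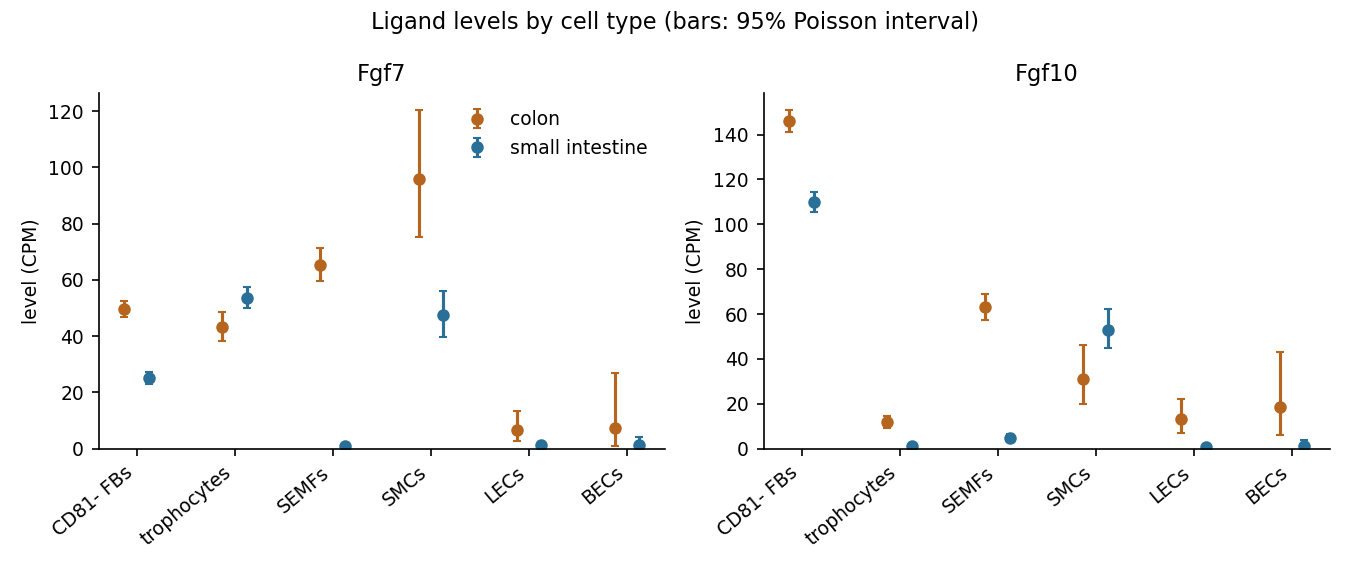
Level in CPM of Fgf7 (left) and Fgf10 (right) by cell type, colon in brown and small intestine in blue, with exact Poisson 95% intervals for 1 library each. Fgf10 peaks in CD81- FBs in both tissues, whereas the Fgf7 of SEMFs stands at 65.2 CPM for the colon and 0.767 CPM for the small intestine.

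The ligands therefore differed in where they sat among the fibroblasts. Small intestinal trophocytes held 53.7 CPM of Fgf7 and 1.06 CPM of Fgf10, a level of Fgf10 like that of LECs. Colon trophocytes also held Fgf7 (43.2 CPM), and their Fgf10 (11.8 CPM) was no higher than in colon LECs (13.1 CPM). CD81- FBs held both ligands in both tissues.

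Receptor transcripts were broader than those of the ligands. Fgfr1 was highest in trophocytes in both libraries, with 266 CPM (253 to 279) for the colon and 226 CPM for the small intestine. In the colon CD81- FBs followed at 203 CPM, then SEMFs at 151, LECs at 129, SMCs at 117 and BECs at 100.1 CPM, where CD81- FBs lay above SEMFs and no later step exceeded counting error. In the small intestine all neighbours differed: SEMFs had 205 CPM, CD81- FBs 190, the SMC label 158, LECs 92.7 and BECs 59.8 CPM. From highest to lowest type the level of Fgfr1 spanned 266 to 100.1 CPM in the colon. Trophocytes were the highest type for 12.5% of colon genes.

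Fgfr2 was highest in CD81- FBs in both libraries, the type that was also highest in Fgf10. In the colon CD81- FBs had 297 CPM (290 to 303), 2.57-fold the next type. Among SMCs (115), SEMFs (108), BECs (104), trophocytes (82.3) and LECs (72.3 CPM) no step exceeded counting error, although SEMFs (100.8 to 115.9) and trophocytes (75.4 to 89.7 CPM) lay apart. In the small intestine CD81- FBs reached 561 CPM (551 to 571) and the SMC label 333 CPM (312 to 355). SEMFs had 133 CPM, trophocytes 97.2, LECs 87.9 and BECs 83.5 CPM, of which LECs and BECs did not differ. A Fgfr2 UMI was found in 84.4% of small intestinal and 73.4% of colon CD81- FBs (48.7% and 32.7% at 1500 UMIs).

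**Figure D2:**
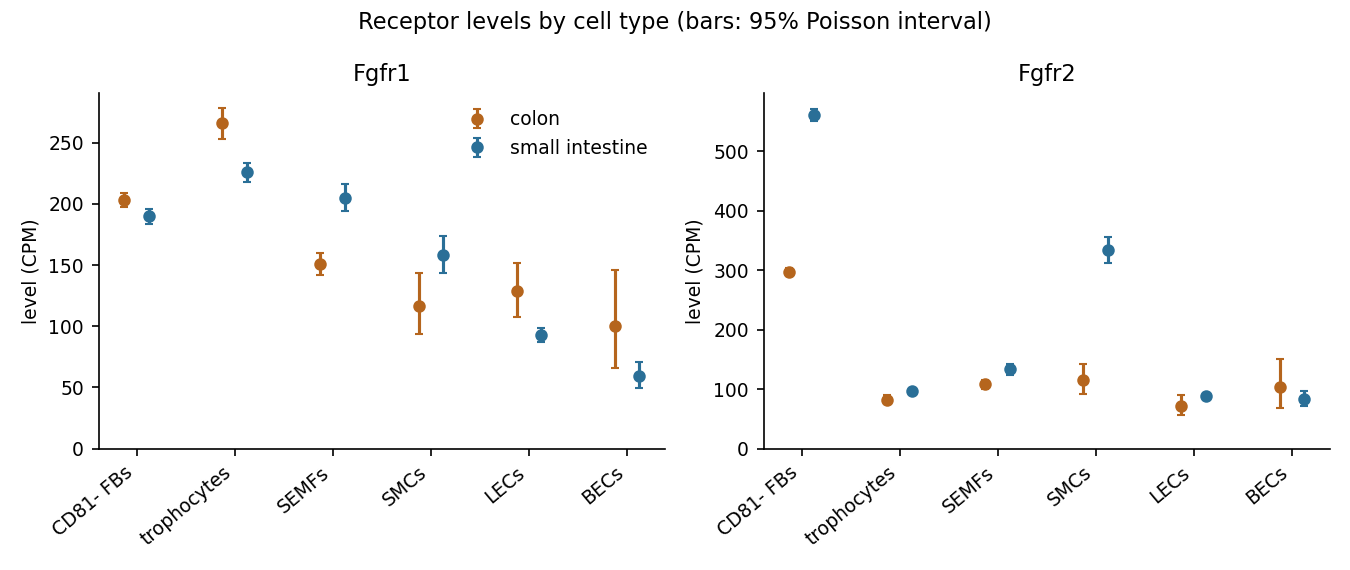
Level in CPM of Fgfr1 (left) and Fgfr2 (right) by cell type, colon in brown and small intestine in blue, with exact Poisson 95% intervals for 1 library each. Fgfr1 is highest in trophocytes (266 and 226 CPM), and Fgfr2 in CD81- FBs, with 561 CPM in the small intestine against 297 CPM in the colon.

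The small intestinal SMC label was also split by Adamdec1. Of its 468 cells, 452 had an Adamdec1 UMI, and in these the level of Fgfr2 was 338 CPM and that of Fgf10 54.0 CPM. In the 16 cells without one, Fgfr2 had 135 CPM (61.6 to 256) and Fgf10 1 UMI. This split was chosen after the values had been seen, and the part of fibroblast transcripts in the levels under this label was not tested.

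Ligand UMIs in lymphatic endothelium were about as frequent, relative to fibroblasts, as UMIs of fibroblast genes. For this comparison, 8 fibroblast genes (collagens, Dcn, Lum and others) had in LECs 5.45% to 11.6% of their fibroblast level in the colon, with a median of 9.91%, and 2.29% to 2.94% in the small intestine. The Fgf10 of LECs was 12.2% (6.66 to 20.5) of the fibroblast level in the colon and 1.65% (0.789 to 3.03) in the small intestine, and Fgf7 12.7% (5.11 to 26.3) and 4.24% (2.37 to 7.02). Fgf7 lay above the range of the fibroblast genes in both tissues and Fgf10 above it in the colon and below it in the small intestine, and all 4 intervals overlapped that range. The part of free RNA in these UMIs was not tested.

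The receptors were above that range. Fgfr1 in LECs had 63.3% of its fibroblast level in the colon and 45.2% in the small intestine, and Fgfr2 had 32.2% and 26.9%. In BECs Fgfr1 had 49.3% and 29.1%, and Fgfr2 46.2% and 25.5%, where the fibroblast genes ran from 10.1% to 28.7% in the colon and from 0.679% to 1.97% in the small intestine. An Fgfr1 UMI was seen in 39.2% of colon LECs (median depth 4545 UMIs) and 30.4% of small intestinal LECs (4117.5 UMIs), whereas 4.15% of colon LECs had one of Fgf10.

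**Figure D3:**
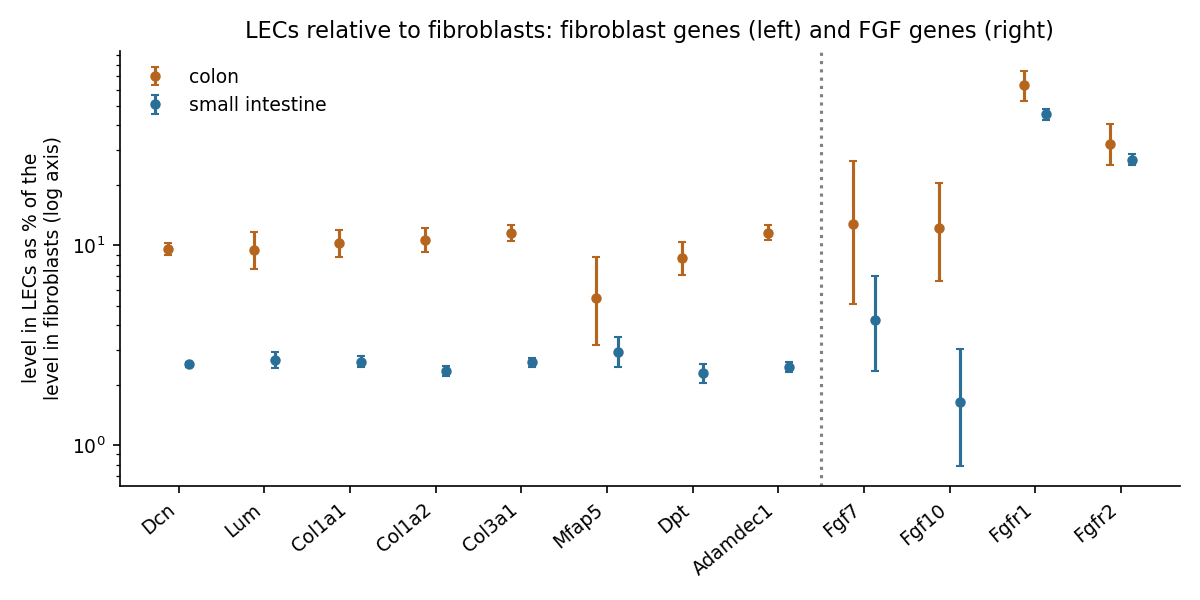
Level in LECs as a percentage of the level in pooled fibroblasts (log axis), with 95% intervals, for 8 fibroblast genes left of the dotted line and the 4 FGF genes right of it. Fgf7 and Fgf10 lie near the fibroblast genes of their library (medians 9.91% colon, 2.58% small intestine), and Fgfr1 and Fgfr2 lie above them.

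Between tissues the ligands were higher in colon fibroblasts and Fgfr2 was higher in small intestinal ones. Ratios are log2 of colon over small intestine, so that 1 is a 2-fold higher level in the colon, with an exact conditional binomial 95% interval. In fibroblasts pooled, Fgf10 had 108 CPM (colon) and 54.2 CPM (small intestine), which is a log2 ratio of 0.99 (0.92 to 1.07). Fgf7 had 51.6 and 31.6 CPM, or 0.71 (0.61 to 0.81). No difference was detectable for Fgfr1, with 203 and 205 CPM and a log2 ratio of -0.01 (-0.06 to 0.03). Fgfr2 had 225 and 327 CPM, or -0.54 (-0.58 to -0.50). None of the 4 passed 2-fold in pooled fibroblasts, a size that 9.75% of 15676 genes passed toward the colon and 10.2% toward the small intestine.

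The pooled values hid different patterns by type. In CD81- FBs the ratio of Fgf7 was 0.99 (0.84 to 1.14), of Fgf10 0.41 (0.33 to 0.49), of Fgfr1 0.10 (0.03 to 0.16) and of Fgfr2 -0.92 (-0.96 to -0.88). None of these passed 2-fold, as 9.71% of genes did toward the colon and 12.1% toward the small intestine. Set against the median gene of CD81- FBs, Fgf7 reached 1.21 and Fgfr2 -0.70. Small intestinal CD81- FBs with a Fgfr2 UMI held 4.74 of them on average and up to 66 in 1 cell, and without that cell the ratio stayed within its interval.

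In SEMFs both ligands were far higher in the colon. Their ratio of Fgf7 was 6.41 (5.18 to 8.04), from 485 UMIs in the colon against 5 in the small intestine, and that of Fgf10 3.78 (3.24 to 4.36), whereas 8.41% of genes in this type passed 2-fold toward the colon and 16.6% toward the small intestine. The receptors of SEMFs went slightly the other way, with -0.44 (-0.56 to -0.33) for Fgfr1 and -0.30 (-0.44 to -0.16) for Fgfr2, and Fgfr2 was at 0.03 relative to the median gene. The sums of other marker lists also differed in SEMFs. Pdgfra-low fibroblast markers summed to 4616 CPM in the colon against 2480 CPM, but the median gene went the other way (14.3 against 67.3 CPM). Pericyte markers summed to 154 against 1241 CPM (1 of 6 at 0 in the colon), with medians of 19.8 and 131 CPM. The SEMF markers themselves summed to 5346 against 8886 CPM, with medians the other way (526 against 286 CPM). The part of these lists in the ligand ratios was not tested.

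Trophocytes had a lower level of Fgf7 in the colon (-0.31, -0.52 to -0.11). Their Fgf10 ratio of 3.47 (2.68 to 4.35) compares 2 levels that did not differ from those of LECs in the same library beyond counting error, and is not read as a difference in expression. Fgfr1 was 0.24 (0.15 to 0.32) and Fgfr2 -0.24 (-0.39 to -0.10) in trophocytes. Of trophocyte genes 7.92% passed 2-fold toward the colon and 9.8% toward the small intestine.

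SMCs had more Fgf7 in the colon (1.02, 0.59 to 1.44) and less Fgfr2 (-1.53, -1.86 to -1.22), beside 5.03% and 20.7% of genes past 2-fold in those directions. Their Fgf10 ratio was -0.77 (-1.46 to -0.14) and their Fgfr1 ratio -0.44 (-0.78 to -0.11). Adamdec1, as given above, was higher in the small intestine like Fgfr2 and Fgf10 and unlike Fgf7, and its part in these ratios was not tested. In LECs Fgfr1 had 0.47 (0.20 to 0.73), and for Fgfr2 (-0.28, -0.64 to 0.05) no difference was detectable at this depth. In BECs Fgfr1 had 0.74 (0.09 to 1.35) and Fgfr2 0.31 (-0.31 to 0.89), from 53 colon cells. Past 2-fold, 7.09% of LEC and 7.18% of BEC genes were higher in the colon and 15.7% and 18.8% in the small intestine.

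**Figure D4:**
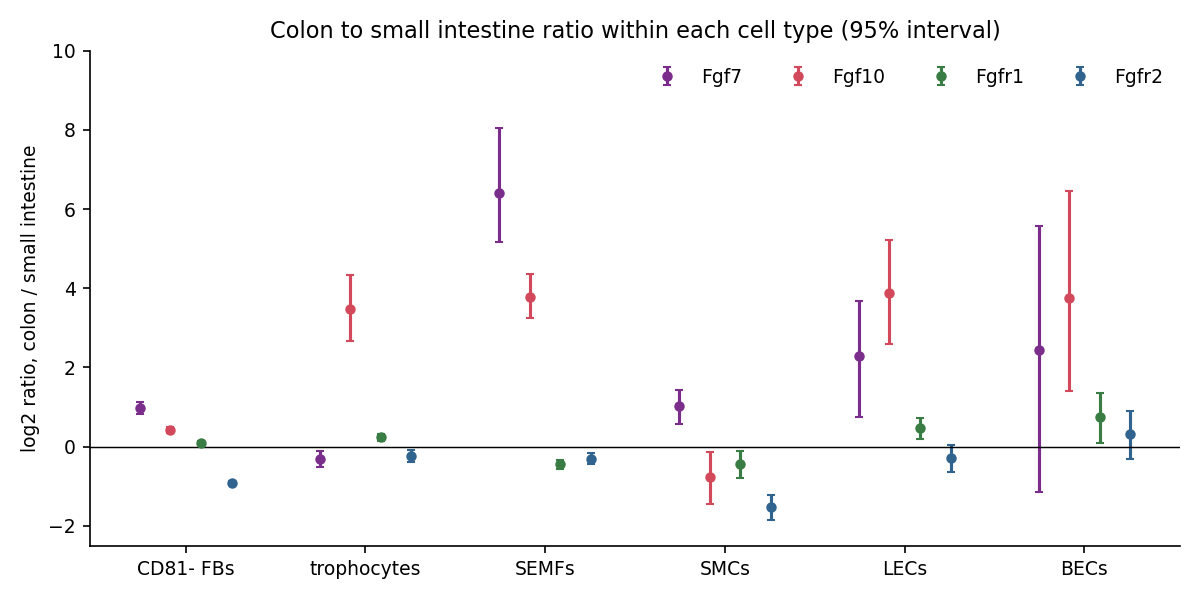
Log2 ratio of colon to small intestine of the 4 genes within each cell type, with exact 95% intervals for 1 library per tissue. Fgf7 and Fgf10 of SEMFs stand at 6.41 and 3.78, while Fgfr2 lies below 0 in CD81- FBs (-0.92) and SMCs (-1.53).

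The Fgf7 of colon SEMFs came from few cells. Only 13.9% of the 1105 cells had a Fgf7 UMI, fewer than in colon CD81- FBs (25.2%), but those cells held 3.15 UMIs each and up to 17. The 73 cells with 2 or more UMIs carried 404 of the 485, or 83.3%. In colon CD81- FBs, cells with 2 or more carried 43.1% of the Fgf7 UMIs.

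These 73 cells differed from the 951 SEMFs without a Fgf7 UMI in other transcripts. The genes listed here were picked after their values had been seen. Ptprr, a receptor phosphatase acting on MAP kinases, had 423 CPM (372 to 478) in the 73 cells and 29.1 CPM (25.0 to 33.7) in the others. Lgr5, an R-spondin receptor best known from epithelial stem cells, had 98.2 against 1.13 CPM, and the secreted protease inhibitor Slpi 138 against 1.29 CPM. The mechanically gated channel Piezo2 had 245 against 17.2 CPM, the ErbB ligand Nrg1 1220 against 199.8 CPM and the prostaglandin synthase Ptgs2 667 against 87.1 CPM.

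Other genes picked in this way were lower in the same cells. The actin-binding Tagln had 9.98 CPM (3.66 to 21.7) against 1307 CPM, smooth muscle actin Acta2 233 against 1610 CPM and the small proteoglycan Aspn 125 against 1005 CPM. The retinol carrier Rbp4 had 215 against 1316 CPM and the chemokine Cxcl12 506 against 2684 CPM. The SEMF genes Pdgfra (1148 and 1143 CPM) and F3, tissue factor (607 and 637 CPM), had overlapping intervals over all cells. In the Y-linked cells described below F3 was lower with Fgf7 (424 against 575 CPM). In the Xist cells F3 had 812 CPM with Fgf7 against 691 CPM, the other direction, with overlapping intervals. The whole list of 8 SEMF markers summed to 4423 against 5478 CPM and that of trophocyte markers to 1082 against 818 CPM. Pdgfra-low fibroblast markers summed to 2697 against 4871 CPM, of which Adamdec1 alone had 2537 and 4807 CPM. Pericyte markers summed to 84.9 against 165 CPM and smooth muscle markers to 78.2 against 107.7 CPM. The list of 8 fibroblast genes summed to 12784 against 13741 CPM. Apart from Lgr5, epithelial markers summed to 1.66 CPM in the 73 cells and 2.41 CPM in the others, with 4 of the 6 listed at 0 in the former. Median depth was 7634 UMIs in the 73 cells and 6186 in the others.

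**Figure D5:**
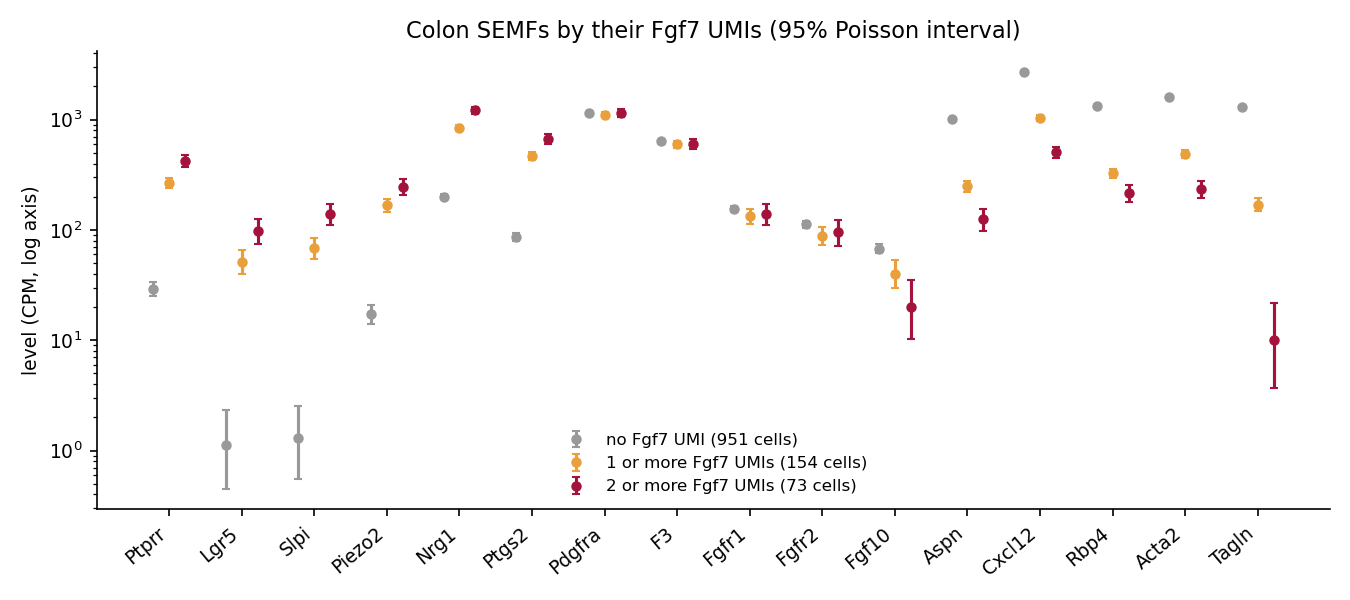
Level in CPM (log axis) of 16 genes in colon SEMFs with no Fgf7 UMI (951 cells), 1 or more (154 cells) and 2 or more (73 cells), with exact Poisson 95% intervals. Ptprr, Lgr5, Slpi, Piezo2, Nrg1 and Ptgs2 are higher and Tagln, Acta2, Aspn, Rbp4 and Cxcl12 lower with Fgf7, while the intervals of Pdgfra and F3 overlap between 0 and 2 or more UMIs.

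The other ligand did not follow. Fgf10 had 19.97 CPM (10.3 to 34.9) in the 73 cells against 67.6 CPM (61.3 to 74.4) in SEMFs without a Fgf7 UMI. After thinning to 1500 UMIs a different set of 73 SEMFs had at least 1 Fgf7 UMI. Of these, 2 also had one of Fgf10 (2.74%, 0.334 to 9.55), against 9.79% (8.04 to 11.8) of SEMFs without Fgf7, with overlapping intervals. Fgfr1 (140 and 154 CPM) and Fgfr2 (94.8 and 112 CPM) had overlapping intervals.

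The same SEMFs were also described by Ptprr. As this gene was picked for its level in cells with Fgf7, the split restates that difference and adds no support to it. The 188 cells with a Ptprr UMI had 263 CPM (238 to 291) of Fgf7 and 39.6 CPM of Fgf10, and the 917 without one 16.6 CPM (13.5 to 20.2) of Fgf7 and 68.8 CPM of Fgf10. In the small intestine only 3 of 1109 SEMFs had a Ptprr UMI, and Lgr5 had 0 UMIs in the SEMFs without Fgf7, which allows up to 0.569 CPM. Colon SEMFs without Ptprr were still above small intestinal ones (0.770 CPM) in Fgf7.

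In the colon library 1751 cells had UMIs of Y-linked genes but not of Xist, and 2700 of Xist but not of Y-linked genes, so the members' levels were also taken from each set. In the small intestine 6896 cells had Y-linked UMIs, and Xist is not listed there. The 29 SEMFs with 2 or more Fgf7 UMIs among the Y-linked cells had 394 CPM of Ptprr and 4.38 CPM of Tagln (1 UMI). The 29 among the Xist cells had 424 CPM of Ptprr and 15.8 CPM of Tagln (4 UMIs). Both genes were picked from the 73 cells that include these sets, so the values restate that difference and add no support to it. The level of Fgf7 in SEMFs was 90.02 CPM (78.2 to 103) in the Y-linked and 46.6 CPM (39.9 to 54.3) in the Xist cells, and that of Fgf10 91.3 and 44.4 CPM. In CD81- FBs these sets were closer, with 52.8 and 47.5 CPM of Fgf7, 157 and 136 of Fgf10, 210 and 200 of Fgfr1, and 319 and 286 of Fgfr2.

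Within CD81- FBs, small intestinal cells with Fgf10 had Fgfr2 more often than cells without it, which was not seen for Fgf10 in the colon or for Fgf7. At 1500 UMIs, 57.9% (52.6 to 63.0) of the 361 small intestinal cells with a Fgf10 UMI also had one of Fgfr2, against 47.3% (45.3 to 49.4) of those without. In the colon these shares were 34.6% (31.0 to 38.4) of 644 cells and 32.3% (30.6 to 34.0), which overlap. For Fgf7 in the small intestine, Fgfr2 was found in 37.4% (27.4 to 48.1) of 91 Fgf7-positive and 49.1% (47.2 to 51.0) of Fgf7-negative cells, with overlapping intervals. The colon shares were 32.8% and 32.7%. Fgfr1 was found in 21.3% of small intestinal cells with and 24.2% without Fgf10, with overlapping intervals.

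Marker levels also differed between these cells. In thinned CD81- FBs the 5-gene list of Pdgfra-low fibroblasts summed to 7920 CPM in colon cells with a Fgfr2 UMI and 6032 CPM in those without, and to 10280 and 8799 CPM in the small intestine. With Fgf7 the sum went down, from 6742 CPM in colon cells without to 5447 CPM in cells with a UMI. For small intestinal cells it fell from 9607 to 6967 CPM. Over all CD81- FBs, Adamdec1 alone made up 5608 of the summed 6682 CPM of colon cells. Of the 9388 CPM of small intestinal cells it made up 8191. These sums thus mostly reflect Adamdec1, and the other genes of the list were not tested separately. Trophocyte markers summed to 1446 CPM in small intestinal CD81- FBs with Fgf10 and 1881 CPM in those without, and to 1835 and 1883 CPM in the colon.

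Across the 12 combinations of type and library, Fgf10 and Fgfr2 had a Pearson r of 0.77 on log2(CPM + 10), the highest among the 6 pairs of the 4 genes, and Fgf7 with Fgfr2 the lowest at 0.30. The points share libraries and depth, so these are descriptions. Among 5978 genes, those most like Fgf10 were the DNA repair gene Rad51b (0.94), the heparanase gene Hpse (0.89) and the aldose reductase gene Akr1b3 (0.86). Rad51b had 1169 CPM in colon CD81- FBs, 67.2 CPM in colon trophocytes and 429 CPM in colon SEMFs. Most like Fgfr2 were the laminin chain Lama1 (0.91), the collagen chain Col6a5 (0.89) and Vstm4 (0.89). Lama1 had 112 CPM in small intestinal and 22.7 CPM in colon CD81- FBs, the same direction as Fgfr2. Fgfr1 was most like Mia3 (0.96), which acts in collagen export, Medag (0.96) and the endocytic receptor Lrp1 (0.95). Fgf7 was most like Pmm1 (0.90), Dap (0.90) and Lrrc17 (0.89).

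Of 60 other genes of FGF signalling, 46 were listed for both libraries and 45 had at least 20 UMIs in pooled fibroblasts. Among these, 4 passed 2-fold toward the colon and 8 toward the small intestine, with a median log2 ratio of -0.30 against -0.15 over all 15676 genes, of which 9.75% passed toward the colon and 10.2% toward the small intestine. Among ligands, 2 of 9 passed in each direction. Fgf12 (1.88; 55.4 against 15.1 CPM) was higher in the colon, and Fgf13 (-2.77; 1.95 against 13.3 CPM) and Fgf14 (-3.93; 1.12 against 17.1 CPM) were higher in the small intestine. The other ligand counted toward the colon, Fgf16, rests on 17 against 8 UMIs with an interval that includes 0. Fgf12, Fgf13 and Fgf14 encode intracellular FGF homologous factors. Fgf12 reached 155 CPM in small intestinal LECs. The secreted Fgf9 was a SEMF transcript in both tissues, at 132 CPM (colon) and 115 CPM (small intestine), close in level where Fgf7 and Fgf10 were not.

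Of 3 other receptors, Fgfr4 passed toward the colon (2.30; 11.7 against 2.37 CPM), highest in CD81- FBs at 17.7 and 4.71 CPM, opposite to Fgfr2 in the same cells. Fgfr3 was at most 24.6 CPM, in small intestinal BECs. In pooled fibroblasts 10.2% of all genes passed 2-fold toward the small intestine and 9.75% toward the colon. Among 14 genes of heparan sulfate proteoglycans, their modifying enzymes and FGF carriers, 4 passed toward the small intestine and 0 toward the colon. They were the glypicans Gpc3 (-1.31) and Gpc4 (-1.03), the sulfatase Sulf1 (-1.21; 80.8 against 187 CPM, with 530 CPM in small intestinal SEMFs) and the sulfotransferase Hs6st1 (-1.04). Gpc6 had the highest level of this list, with 1038 CPM.

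None of 6 adaptors passed 2-fold (median -0.51), of which Grb2 reached 99.8 CPM. Of 13 feedback and response genes, Flrt2 (-1.15; 33.9 against 75.3 CPM) and Flrt3 (-1.01; 15.1 against 30.6 CPM), membrane partners of FGF receptors, passed toward the small intestine and Etv4, an FGF response gene under 10 CPM, toward the colon. Etv1, another response gene, was highest in SEMFs, with 417 CPM in the small intestine and 113 CPM in the colon. Relative to the median gene, 4 instead of 8 genes passed toward the small intestine, without Gpc4, Hs6st1, Flrt2 and Flrt3. Toward the colon, Fgf18 (1.10 on this scale) was added, so the lean toward the small intestine depended on the scaling.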

How the data were processed

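Stromal cells of mouse colon and small intestine (1 library each) were analysed. The authors deposited raw UMI counts per gene and cell, a natural log normalized table (not used) and a cell type label per cell. Cell Ranger 7.1.0, Seurat 4 and the build mm10 (GRCm38) are named in the submitters' processing notes, and the method of naming cells is not given in the sources used here. The label table columns hold only names.

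Counts were summed per library and type with no filter on cells, and expressed as CPM, with numpy 2.4.6, scipy 1.17.1 and pandas 2.3.3. Colon capillary, arterial and venous cells were pooled as BECs, and types with at least 50 cells in both libraries were compared. Library totals were 40684070 (colon) and 58134526 UMIs (small intestine).

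Levels carry exact Poisson, shares Clopper-Pearson and ratios conditional binomial 95% intervals, checked on simulated counts. A ratio with a count of 0 uses a floor of 3 counts. Doublets were not removed: Scrublet (scanpy 1.11.5) marked 1 of 6018 colon cells (0.0166%), too few to have worked, and 85 of 9359 small intestinal cells (0.908%). For co-detection and thinned shares each cell was cut at random to 1500 UMIs, which left out 153 small intestinal cells.

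The members, gene lists and comparisons were chosen with earlier results of these data known. Besides the 4 members, panel genes past 2-fold that reached 10 CPM in any type were named, with the highest gene of each list, and for each member the 3 genes with the highest Pearson r among those reaching 50 CPM. Alternatives varied the weighting of cells, doublets, depth, scaling and the colon cells used, and subtracting the level in LECs was added after the values were seen. No protein sequence and no promoter of Fgfr1 was used here.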

Additional observations from a re-analysis of the deposited data

Results flagged for a closer look

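Fgf7 went in opposite directions within the fibroblasts, with a log2 ratio of colon to small intestine of 6.41 in SEMFs and -0.31 in trophocytes. The difference was not tested, as there is 1 library per tissue.

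Fgf10 had a ratio of 3.88 in LECs and -0.77 in SMCs. The LEC value compares 14 and 10 UMIs, and the small intestinal SMC label carried Adamdec1. The difference was not tested.

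Fgfr1 had a ratio of 0.74 in BECs and -0.44 in SEMFs, the former from 53 colon cells, and this difference was not tested.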

How the results depend on the processing

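No paired analysis was possible because each tissue has 1 library. Of the 28 log2 ratios of the 4 genes, 28 stayed within their intervals without the cell richest in the gene, 26 with each cell weighted equally and 25 when the top 6% by doublet score were left out. With cells thinned to 1500 UMIs 21 of 27 did (Fgf10 in BECs gave no value), and 47 of 48 shares of cells with a UMI moved. Of the 28 ratios, 22 stayed with only Y-linked colon cells, 18 with only Xist colon cells and 16 relative to the median gene. With the level in LECs subtracted 4 ratios stayed and 4 moved. With fibroblast subtypes weighted equally 2 stayed and 2 moved.

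In pooled fibroblasts, Fgf7 (0.71) had 0.82 thinned, 0.87 with only Y-linked and 0.56 with only Xist colon cells, 0.88 relative to the median gene, 0.99 with subtypes weighted equally and 0.57 with the level in LECs subtracted. Fgf10 (0.99) had 1.08 with cells weighted equally, 1.11 with only Y-linked and 0.85 with only Xist cells, 1.17 relative to the median gene and 0.83 with the level in LECs subtracted. Fgfr1 (-0.01) had 0.065 thinned and 0.16 relative to the median gene. Fgfr2 (-0.54) had -0.50 without the 6% of cells with the most UMIs, -0.46 with only Y-linked and -0.60 with only Xist cells, -0.37 relative to the median gene and -0.70 with subtypes weighted equally. The directions of Fgf7, Fgf10 and Fgfr2 held in each of these.

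Of the other FGF genes, 2 instead of 4 passed toward the colon with at least 100 UMIs. Relative to the median gene, 4 instead of 8 passed toward the small intestine, and Fgf18 (1.10) was added toward the colon.

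Among ratios whose interval excluded 0, the sign changed for Fgfr2 in trophocytes with only Y-linked cells (0.053 against -0.24), for Fgfr2 in SEMFs relative to the median gene (0.032 against -0.30) and for Fgfr1 in BECs with only Xist cells (-0.016 against 0.74, from 6 colon UMIs), and the cause was not tested. Where the interval included 0, it also changed for pooled Fgfr1 (above, and 0.02 with only Y-linked cells) and for Fgfr2 in BECs (0.31; -0.22 without the 6% of cells with the most UMIs, -0.28 thinned and -0.08 with only Xist cells). Subtracting the level in LECs gave no value for Fgf7 in SEMFs or Fgf10 in trophocytes, and -1.54 for Fgf10 in SMCs. Ratios of BECs and SMCs rest on 53 and 125 colon cells.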
